A study of Mus musculus with 16 samples.

Results

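Immediate early genes are transcribed within minutes of a stimulus from factors already present in the cell, without new protein synthesis. Many of them encode transcription factors. FOS and JUN proteins pair as AP-1, the EGR proteins are zinc finger factors, and feedback genes such as Dusp1 and Zfp36 shut the response down again. In macrophages they are known to respond to growth factors, bacterial products and adhesion, and they are also known to respond to tissue handling and enzymatic digestion.

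The 10 members were given as a list of symbols, drawn up with earlier results of these data known: Fos, Fosb, Jun, Junb, Egr1, Egr2, Ier2, Klf6, Atf3 and Nr4a1. All 10 were found among the 55421 genes of the count tables, and all 10 passed the filter on low counts in both tissues. The study used C57BL/6 mice fed HFD, and isolated macrophages from white adipose tissue (WAT) or liver. All mice carried floxed Gpr132, written GPR132fl/fl in the labels and fl/fl here. In the conditional knockout (Lyz2_cre+/_GPR132fl/fl, CKO here) a Cre driven by Lyz2, a gene of macrophages, monocytes and neutrophils, acts on the floxed gene. Each genotype received vehicle or NOX_6_18, an antagonist of the G protein-coupled receptor GPR132. Per the labels, tissue went into liquid nitrogen before RNA was taken from its macrophages, with no sorting marker stated. This gave 8 groups of 2 libraries, and the comparisons ask how receptor antagonism and myeloid deletion of Gpr132 alter transcription. Whether both libraries of a group are from different mice is not stated in the labels. The p-values therefore reflect the spread seen between these libraries alone, and that spread may be technical.

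The WAT libraries held 48348395 to 58396991 counts each and the liver libraries 45624957 to 60761705. Levels are given as CPM, the usual unit of counts relative to library size, scaled by the trimmed mean of M values (TMM) over all 16 libraries; 3 counts, the most that a count of 0 allows, equal 0.0494 to 0.0658 CPM before that scaling, for counting error only. The fl/fl vehicle libraries of WAT stood apart. They had 25039 and 25702 genes with a count, against 30393 to 31289 in the other 6 WAT libraries. Gpr132 was at 48.2 and 49.3 CPM in those libraries, at 41.6 and 41.7 CPM in WAT fl/fl NOX_6_18, at 24.8 and 44.9 CPM in the WAT libraries labelled CKO on vehicle, and at 38.9 and 41.0 CPM in those labelled CKO on NOX_6_18. In liver it was at 5.80 and 6.14 CPM in fl/fl vehicle, 2.35 and 3.10 in fl/fl NOX_6_18, 2.12 and 2.70 in CKO vehicle, and 3.49 and 4.07 in CKO NOX_6_18. These counts cover the whole gene, and the part removed by Cre is not given in the sources used here, so they do not check the knockout.

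The promoters below are shown for 3 members that fell in both tissues (Fos, Jun, Atf3), for Klf6, whose change differed most clearly between the tissues, and for Egr2, the least abundant member. Sequences and starts are from RefSeq on GRCm38.p6, 5′ to 3′ on the gene's strand, ending at the base before the annotated start. 8 of the 10 members were matched to the promoter table, Egr2 with 5 windows and the others with 1 each. Egr1 and Ier2 had no window there and were not searched. Capitals mark matches, on either strand, to the cyclic AMP response core TGACG, to TGACATCA, to the TATA box TATAAA and to the CArG box bound by serum response factor. For Egr2 only 1 of the 5 windows is shown, and it holds matches. The Egr2 stretch at 67535379 to 67535498, not shown, holds none. The stretches shown for Egr2 and Atf3 lie inside the gene spans given below, downstream of the genes' 5′ ends.
Fos, chr12:85473770-85473889, plus strand: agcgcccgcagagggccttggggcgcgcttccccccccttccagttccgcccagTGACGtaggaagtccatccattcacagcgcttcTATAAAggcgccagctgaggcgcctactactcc
Jun, chr4:95052223-95052342, minus strand: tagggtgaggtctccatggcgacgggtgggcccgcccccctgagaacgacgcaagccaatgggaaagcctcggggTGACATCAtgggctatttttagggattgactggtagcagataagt
Klf6, chr13:5861369-5861488, plus strand: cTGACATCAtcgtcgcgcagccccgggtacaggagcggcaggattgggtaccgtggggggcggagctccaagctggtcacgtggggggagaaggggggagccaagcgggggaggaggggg
Atf3, chr1:191183334-191183453, minus strand: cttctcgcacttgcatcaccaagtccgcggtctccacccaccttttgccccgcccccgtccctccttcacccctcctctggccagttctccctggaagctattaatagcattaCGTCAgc
Egr2, chr10:67537749-67537868, plus strand: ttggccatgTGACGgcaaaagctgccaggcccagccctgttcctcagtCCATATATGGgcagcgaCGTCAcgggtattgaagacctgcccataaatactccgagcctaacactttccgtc

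TGACG or its reverse complement lay in 8 of the 12 windows of members, and in 20.8% of all 32851 windows of the table. TGACATCA lay in 2 of the 12, those of Jun and Klf6, against 3.62% of all windows. The CArG box lay in 4 of the 5 windows of Egr2 and in no window of another matched member, against 1.63% of all windows. TATAAA lay in 2 of the 12, against 13.6%. The palindrome TGACGTCA, which contains TGACG, and the AP-1 element TGANTCA lay in 0 of the 12, against 1.79% and 7.81% of all windows. These counts use the table's full windows, which reach further upstream than the stretches printed and past the start, and in Junb the TATAAA begins at the start itself. The window of Fos, for example, ran from 85473640 to 85473939 on chromosome 12. Sequence outside the windows was not searched. The absence of a CArG box or another match therefore holds for the windows only, and does not show that a member lacks the site. Of the 5 windows of Egr2, 3 overlap one another and hold the same CArG box and the same TGACG matches. A separate window holds another CArG box. These matches describe letters and not occupied sites.

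All 10 members are protein-coding, and reads were counted per gene. In GRCm38, Fos lies on chromosome 12 (85473890 to 85477273), Fosb on 7 (19302696 to 19310051), Jun on 4 (95049034 to 95052222) and Junb on 8 (84974484 to 84978718). Egr1 lies on chromosome 18 (34859823 to 34864984), Egr2 on 10 (67535475 to 67542188), Ier2 on 8 (84661331 to 84662852) and Klf6 on 13 (5861482 to 5870394). Atf3 lies on chromosome 1 (191170296 to 191218039) and Nr4a1 on 15 (101254269 to 101274795). Exons of Jun overlap the antisense gene Junos over 232 bases (7.28% of the exonic length of Jun), and those of Junb overlap Prdx2 on the other strand over 173 bases (7.52%). The strand setting of the counting is not given in the sources used here, so the counts of these 2 members are uncertain to that extent.

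The members were abundant in WAT. Per kilobase of exon on the CPM scale, the median over the 8 WAT libraries was 759 for Fos, 681 for Junb, 374 for Jun, 369 for Egr1 and 235 for Fosb. The levels of Jun (353 to 504) and Egr1 (351 to 499) overlapped over nearly their whole ranges. Atf3 (median 202, from 195 to 305), Klf6 (195, from 193 to 282), Nr4a1 (194, from 161 to 238) and Ier2 (155, from 142 to 256) also overlapped. Fosb (226 to 275) overlapped Atf3, Klf6, Nr4a1 and Ier2, and in the fl/fl vehicle libraries it was below Atf3 and Klf6. Egr2 was far lower, at a median of 13.1 (7.12 to 24.3), with no overlap with another member.

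The order was different in liver. By the median over all 8 libraries, Junb led there with 71.0 (60.8 to 77.8), followed by Jun at 59.8 (53.4 to 99.5) and Fos at 48.4 (46.03 to 73.3), and these 3 ranges overlapped. In the fl/fl vehicle libraries alone Jun was first, at 98.7 and 99.5 against 77.8 and 77.7 for Junb. Egr1 (31.8), Klf6 (30.5) and Ier2 (30.2) were level with each other, ahead of Nr4a1 (19.7) and Atf3 (12.3). Fosb was next to last in liver at 6.68 (5.48 to 8.75), and Egr2 was last at 0.785 (0.574 to 1.03).

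**Figure D1:**
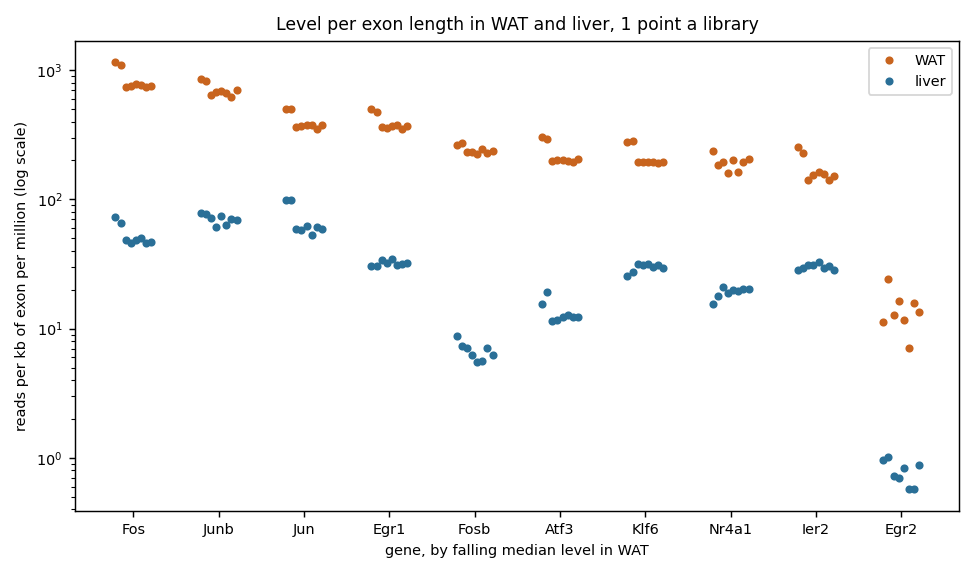
Level of each immediate early gene per kilobase of exon on the CPM scale, on a log axis, in the 8 WAT and 8 liver libraries; each point is 1 library. Over the 8 libraries of a tissue Fos had the highest median in WAT (759) and Junb in liver (71.0), although Jun was above Junb in the fl/fl vehicle libraries of liver, and Egr2 was lowest in both tissues.

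Levels in WAT exceeded those in liver for every member, both in fl/fl vehicle and in the other 3 groups, by edgeR's quasi-likelihood test over all 16 libraries. All 10 were called in fl/fl vehicle, where 21.6% of all genes tested were called higher in WAT, and all 10 in the mean of the other 3 groups, where 44.7% were. The fl/fl vehicle difference was greatest for Fosb, a FOS-family partner of JUN proteins, which was at 1654 and 1719 CPM in WAT and 54.6 and 46.2 CPM in liver. The log2 fold change was 5.06 ± 0.10 (SE, n = 2 libraries a group, adjusted p = 1.12e-12). It was smallest for Jun, the principal JUN subunit of AP-1, at 2.34 ± 0.06 (adjusted p = 1.59e-11), and lay between 3.07 and 4.17 for the other 8. The median of the 10 was 3.83, against 0 over all genes. In the other 3 groups the median was 3.39 against 0.33.

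Scaling by library totals alone moved these medians to 4.78 and 4.49, with the median of all genes at 0.95 and 1.43. Removing the trend with GC content and length lowered the difference of Ier2 in the other 3 groups from 2.31 to 1.24. The mitochondrial share of counts was 43.0% to 44.9% for liver libraries and 2.31% to 3.61% for WAT libraries. In bulk RNA, fewer cells of a type and less RNA per cell cannot be told apart, and tissue and library composition changed together here.

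In WAT, 8 of the 10 members fell with NOX_6_18 in fl/fl mice. Ier2 fell by 39.5%, the most, and Fosb fell by 15%, the least of the 8, and no member rose. Among all 25871 genes tested, 13.2% were called lower and 24.6% higher in this comparison. The members' median log2 fold change was −0.46, against 0.12 over all genes. With library totals as the only scaling these medians moved to −0.29 and 0.29 with 7 members lower, and the share of rises among called genes went from 65.1% to 82.6%. With the trend on GC content and length removed they moved to −0.52 and −0.01 with 8 members lower, and that share to 51.9%.

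Among the FOS genes, Fos, which encodes the best known FOS subunit of AP-1, stood at 2714 and 2584 CPM in the fl/fl vehicle libraries of WAT and at 1753 and 1773 CPM in fl/fl NOX_6_18. It stood at 1835 and 1799 CPM in CKO vehicle and at 1731 and 1766 CPM in CKO NOX_6_18. Both fl/fl vehicle libraries were above the other 6, which lay close together. The change with NOX_6_18 in fl/fl was −0.60 ± 0.04 on the log2 scale (SE; edgeR adjusted p = 1.16e-05). Fosb read 1654 and 1719 CPM in fl/fl vehicle, 1447 and 1444 in fl/fl NOX_6_18, 1408 and 1526 in CKO vehicle, and 1419 and 1486 in CKO NOX_6_18. The fl/fl vehicle libraries were again the highest pair, by a smaller margin of −0.23 ± 0.05 (adjusted p = 0.00563). The call for Fosb was lost without the second fl/fl NOX_6_18 library (−0.21, adjusted p = 0.0586) and with library totals as the only scaling (−0.07, adjusted p = 0.314).

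The JUN genes gave the same arrangement. Jun was at 1602 and 1606 CPM in fl/fl vehicle, 1149 and 1179 in fl/fl NOX_6_18, 1193 and 1208 in CKO vehicle, and 1126 and 1195 in CKO NOX_6_18. Junb, a JUN protein that often dampens the activity of JUN itself, was at 1970 and 1907, 1473 and 1554, 1578 and 1544, and 1429 and 1606 CPM in the same order of groups. In both genes the fl/fl vehicle pair lay above all other WAT libraries. The log2 change with NOX_6_18 in fl/fl was −0.48 ± 0.04 for Jun (edgeR adjusted p = 4.89e-05) and −0.37 ± 0.06 for Junb (adjusted p = 0.0015).

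Atf3, a stress-induced repressor of the ATF/CREB family that also pairs with JUN proteins, was at 658 and 635 CPM in fl/fl vehicle and at 425 and 433 CPM in fl/fl NOX_6_18. It was at 438 and 430 CPM in CKO vehicle and at 419 and 440 CPM in CKO NOX_6_18. The groups other than fl/fl vehicle overlapped one another. The change with NOX_6_18 was −0.61 ± 0.05 (SE; edgeR adjusted p = 3.51e-05).

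Of the EGR genes, Egr1, a zinc finger factor induced by growth signals, was at 2239 and 2128 CPM in fl/fl vehicle, 1640 and 1604 in fl/fl NOX_6_18, 1664 and 1689 in CKO vehicle, and 1574 and 1649 in CKO NOX_6_18. Its change with NOX_6_18 in fl/fl was −0.44 ± 0.04 (edgeR adjusted p = 0.000123). Egr2, which acts in myelin-forming cells and in myeloid and lymphoid differentiation, varied widely between libraries. It read 38.3 and 82.6 CPM in the fl/fl vehicle libraries, 43.1 and 55.3 in fl/fl NOX_6_18, 39.9 and 24.2 in CKO vehicle, and 53.5 and 46.1 in CKO NOX_6_18. The highest WAT library had 3.42 times the CPM of the lowest, and these values rest on 1817 to 6066 counts. The fl/fl vehicle libraries differed from each other by more than the groups did, and the change with NOX_6_18 was −0.30 ± 0.34 (adjusted p = 0.533). Without the second fl/fl vehicle library its sign turned, to 0.34 (adjusted p = 0.388).

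Ier2, a nuclear regulator with a short, early transcript, had the greatest fall. It was at 390 and 348 CPM in fl/fl vehicle, 216 and 235 in fl/fl NOX_6_18, 247 and 238 in CKO vehicle, and 216 and 231 in CKO NOX_6_18. The change with NOX_6_18 was −0.72 ± 0.08 (SE; edgeR adjusted p = 0.000164). Klf6, a Krüppel-like zinc finger factor of inflammatory macrophages, was at 1222 and 1239 CPM in fl/fl vehicle and between 846 and 858 CPM in all 6 other libraries. It was the steadiest member among those 6, and its change was −0.54 ± 0.04 (adjusted p = 1.29e-05).

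Nr4a1, an orphan nuclear receptor (NUR77) that restrains inflammatory gene expression in macrophages, was not called. It was at 835 and 652 CPM in fl/fl vehicle, 683 and 564 in fl/fl NOX_6_18, 705 and 576 in CKO vehicle, and 679 and 717 in CKO NOX_6_18. The groups overlapped, and the change with NOX_6_18 was −0.27 ± 0.14 (edgeR adjusted p = 0.184). Without the second fl/fl vehicle library it was −0.44 (adjusted p = 0.0362).

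**Figure D2:**
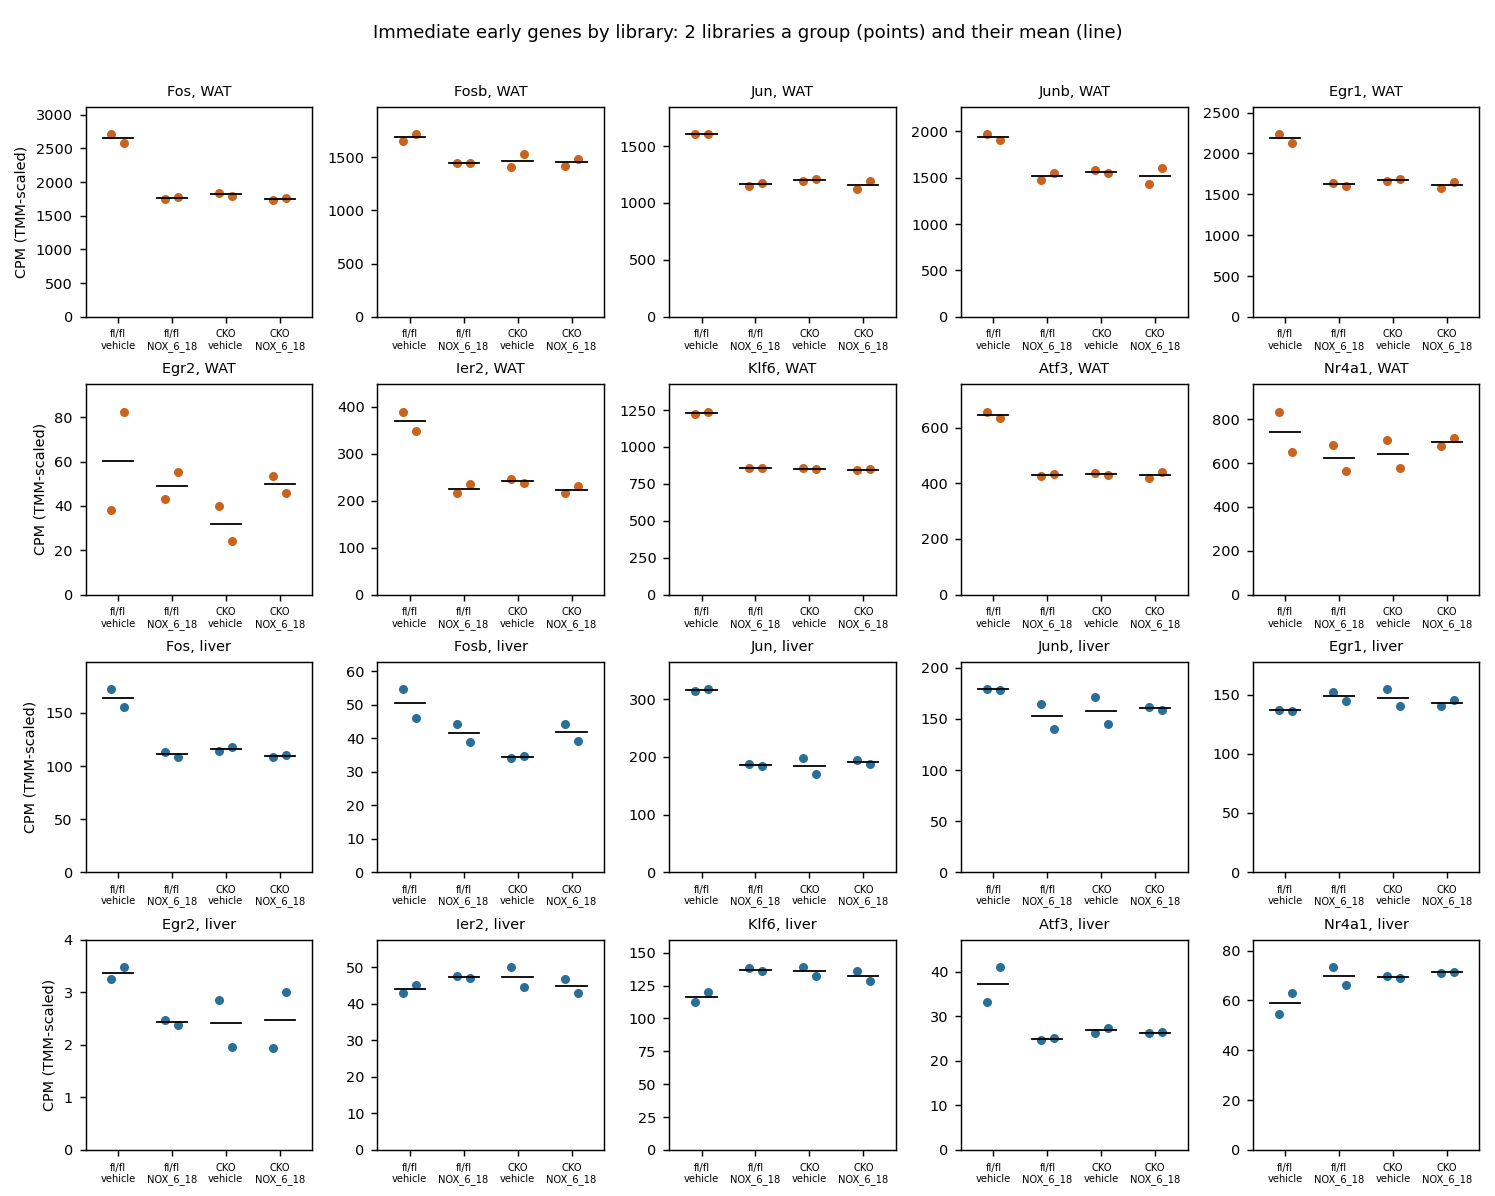
CPM of each immediate early gene (linear axis from 0, its own scale in each panel) by group, in WAT (orange) and liver (blue); points are the 2 libraries of a group and lines their mean. In WAT the fl/fl vehicle pair lay above the other 6 libraries for Fos (2714 and 2584 CPM) and 7 further members, and in liver it lay well above them for Jun (315 and 317 CPM) and below them for Klf6 (113 and 120 CPM).

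The same 8 members were lower in CKO than in fl/fl on vehicle in WAT, where 12.4% of all genes were called lower and 24.4% higher. This comparison uses the same fl/fl vehicle libraries as the one above, so the pair of them is not independent. The log2 changes were −0.56 ± 0.04 for Fos (SE; edgeR adjusted p = 1.63e-05), −0.55 ± 0.04 for Klf6 (1.11e-05), −0.60 ± 0.05 for Atf3 (3.81e-05) and −0.63 ± 0.08 for Ier2 (0.000384). Jun changed by −0.44 ± 0.04, Egr1 by −0.40 ± 0.04, Junb by −0.33 ± 0.06 and Fosb by −0.22 ± 0.05, with adjusted p from 7.9e-05 to 0.00757. The members' median was −0.49, against 0.10 over all genes. Egr2 had the largest estimate and the widest error, −0.93 ± 0.35 (adjusted p = 0.0682), and passed without the first fl/fl vehicle library (−1.37, adjusted p = 0.00596). Nr4a1 was at −0.24 ± 0.14 (adjusted p = 0.239), and passed without the second fl/fl vehicle library (−0.41, adjusted p = 0.0487). With library totals as the only scaling, Fosb (−0.06, adjusted p = 0.426) and Junb (−0.17, adjusted p = 0.0505) were not called. Fosb was also lost when the fit held only the groups compared (−0.20, adjusted p = 0.0929).

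No member was called in WAT in either comparison that leaves out the fl/fl vehicle libraries. For NOX_6_18 in CKO, 0 of 10 passed edgeR's test and 0 had an unadjusted p under 0.05, while 0.0155% of all genes were called in either direction. Estimates ran from −0.11 ± 0.08 for Ier2 to 0.65 ± 0.34 for Egr2, with Fos at −0.05 ± 0.04 and Klf6 at 0 ± 0.04. For CKO against fl/fl on NOX_6_18, 0 of 10 passed, 0 had an unadjusted p under 0.05, and 0.0348% of all genes were called. Estimates ran from −0.01 to 0.16 (Nr4a1, ± 0.14). DESeq2 and limma-voom also called 0 members in both.

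The treatment by genotype interaction tests whether NOX_6_18 changed a gene by different amounts in CKO and fl/fl mice. In WAT it was positive and called for the 8 members that fell in fl/fl. Of all 25871 genes tested, 1737 (6.71%) were called higher and 4810 lower. The interaction was 0.55 ± 0.06 for Fos (SE; edgeR adjusted p = 0.000215), 0.53 ± 0.05 for Klf6 (0.000154), 0.60 ± 0.07 for Atf3 (0.000417) and 0.62 ± 0.11 for Ier2 (0.0041). It was 0.44 ± 0.06 for Jun, 0.39 ± 0.06 for Egr1, 0.34 ± 0.08 for Junb and 0.23 ± 0.07 for Fosb. Fosb (adjusted p = 0.0404) and Junb (adjusted p = 0.0188) were the weak calls. The call for Fosb was lost in 6 of the 8 fits that left out 1 library, with adjusted p of 0.0591 to 0.154 there. It was also lost with relative log expression size factors (adjusted p = 0.0503), library totals (0.06, adjusted p = 0.575), at least 50 counts in 2 libraries (0.0735), DESeq2 (0.112) and the GC and length trend removed (0.0686). The call for Junb was lost with library totals (0.17, adjusted p = 0.166), and also without the first fl/fl NOX_6_18 library (0.30, adjusted p = 0.0873), the second CKO vehicle library (0.32, adjusted p = 0.0639) or the second CKO NOX_6_18 library (0.25, adjusted p = 0.0607). Egr2 passed without the first fl/fl vehicle library (1.39, adjusted p = 0.0241) and Nr4a1 without the second (0.58, adjusted p = 0.0466).

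**Figure D3:**
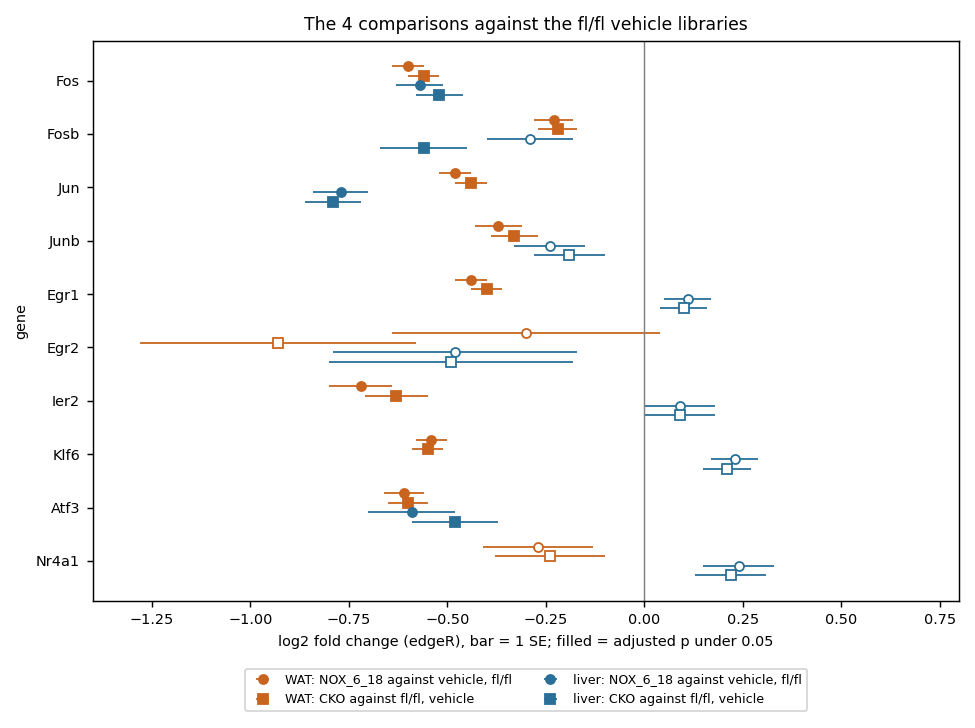
Log2 fold change of each immediate early gene in the 4 comparisons that use the fl/fl vehicle libraries, in WAT (orange) and liver (blue); points are edgeR estimates, bars are 1 SE, and filled points had an adjusted p under 0.05. All 10 members lay below 0 in WAT, while Egr1, Ier2, Klf6 and Nr4a1 lay above 0 in liver without passing.

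In liver, Jun, Fos and Atf3 fell in both comparisons with fl/fl vehicle, and Fosb in 1 of them. With NOX_6_18 in fl/fl, 3 of the 10 were called lower (Jun, Fos and Atf3) and 0 higher, where 1.74% of all 19515 genes tested were called lower and 3.78% higher. The members' median was −0.26, against 0 over all genes. In CKO on vehicle, 4 were called lower (Jun, Fos, Fosb and Atf3) and 0 higher, where 1.83% were called lower and 3.96% higher. The median was −0.34, against −0.01. Both liver comparisons again share the fl/fl vehicle libraries.

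Jun had the greatest change among the members in liver. It was at 315 and 317 CPM in fl/fl vehicle, 188 and 185 in fl/fl NOX_6_18, 198 and 170 in CKO vehicle, and 194 and 187 in CKO NOX_6_18. The fl/fl vehicle pair stood clear of the other 6 libraries, which overlapped. The log2 change was −0.77 ± 0.07 with NOX_6_18 (edgeR adjusted p = 0.000412) and −0.79 ± 0.07 in CKO (adjusted p = 0.000357). Fos was at 172 and 156 CPM in fl/fl vehicle, 114 and 108 in fl/fl NOX_6_18, 114 and 118 in CKO vehicle, and 109 and 110 in CKO NOX_6_18. Here too the fl/fl vehicle pair was highest, by −0.57 ± 0.06 (adjusted p = 0.00135) and −0.52 ± 0.06 (adjusted p = 0.00233).

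Atf3 and Fosb were less certain in liver. Atf3 was at 33.3 and 41.1 CPM in fl/fl vehicle, against 24.8 to 27.4 CPM in the other 6 libraries. The fl/fl vehicle pair lay above those 6, and the log2 changes were −0.59 ± 0.11 (edgeR adjusted p = 0.0227) and −0.48 ± 0.11 (adjusted p = 0.048). The NOX_6_18 call was lost without the second fl/fl vehicle library (−0.42, adjusted p = 0.127) or either fl/fl NOX_6_18 library (adjusted p = 0.119 and 0.106). It was also lost when the fit held only the groups compared (adjusted p = 0.0693). The CKO call was lost without the second fl/fl vehicle library (−0.31, adjusted p = 0.26) or either CKO vehicle library (adjusted p = 0.219 and 0.17), with only the groups compared (0.115), with library totals (0.0504), and with mitochondrially encoded genes left out (0.0501).

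Fosb was at 54.6 and 46.2 CPM in fl/fl vehicle, 44.2 and 38.9 in fl/fl NOX_6_18, 34.2 and 34.8 in CKO vehicle, and 44.3 and 39.2 in CKO NOX_6_18. The CKO vehicle libraries were the lowest pair, and their log2 change of −0.56 ± 0.11 was called (edgeR adjusted p = 0.0214). The NOX_6_18 change of −0.29 ± 0.11 was not (adjusted p = 0.203). The CKO call was lost without the first fl/fl vehicle library (−0.43, adjusted p = 0.134) or either CKO vehicle library (adjusted p = 0.119 and 0.106). Leaving out either CKO vehicle library therefore took the CKO count in liver from 4 to 2.

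Klf6, Egr1, Ier2 and Nr4a1 did not fall in liver, and their estimates were positive. Klf6 was at 113 and 120 CPM in fl/fl vehicle, 138 and 136 in fl/fl NOX_6_18, 139 and 132.4 in CKO vehicle, and 136 and 129 in CKO NOX_6_18. The fl/fl vehicle pair was the lowest, the opposite of WAT, with changes of 0.23 ± 0.06 (edgeR adjusted p = 0.0751) and 0.21 ± 0.06 (adjusted p = 0.0959). The first of these passed with DESeq2 (adjusted p = 0.041) and limma-voom (adjusted p = 0.0493). Nr4a1 was at 54.7 and 63.2 CPM in fl/fl vehicle and at 66.2 to 73.4 CPM in the other 6 libraries, with changes of 0.24 ± 0.09 (adjusted p = 0.181) and 0.22 ± 0.09 (adjusted p = 0.211). Egr1 (136 to 154 CPM over all 8 libraries) and Ier2 (42.9 to 50.1 CPM) varied little, with estimates between 0.09 and 0.11.

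Junb and Egr2 had negative estimates in liver that did not pass. Junb was at 179 CPM in both fl/fl vehicle libraries and at 140 to 171 CPM in the other 6, with changes of −0.24 ± 0.09 (edgeR adjusted p = 0.215) and −0.19 ± 0.09 (adjusted p = 0.338). Egr2 was at 3.25 and 3.48 CPM in fl/fl vehicle and 1.95 to 3.01 CPM in the others. It rested on as few as 69 counts in a library, and its changes were −0.48 ± 0.31 and −0.49 ± 0.31.

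As in WAT, the comparisons without the fl/fl vehicle libraries called no member in liver. For NOX_6_18 in CKO, 0 of 10 passed edgeR's test, 1 had an unadjusted p under 0.05 (Fosb, 0.28 ± 0.11), and 0.0359% of all genes were called in either direction. For CKO against fl/fl on NOX_6_18, 0 passed, 0 had an unadjusted p under 0.05, and 0.0359% of all genes were called. Estimates there ran from −0.08 to 0.08. DESeq2 and limma-voom called 0 members in both. The treatment by genotype interaction was called for Jun (0.82 ± 0.10, adjusted p = 0.00359) and Fos (0.50 ± 0.09, adjusted p = 0.0277). Of all 19515 genes tested, 114 (0.584%) were called higher and 364 lower. The Fos interaction was lost in every fit that left out 1 library except that without the second fl/fl vehicle library, with adjusted p of 0.0692 to 0.107 in the other 7, and with the replicate number as a block (adjusted p = 0.051). The interaction was 0.56 ± 0.15 for Fosb (adjusted p = 0.124), which passed with DESeq2 (adjusted p = 0.0489), and 0.56 ± 0.16 for Atf3 (adjusted p = 0.144).

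The tissues differed in these responses for some members. A treatment by tissue interaction in fl/fl tests whether the log2 change with NOX_6_18 in WAT minus that in liver differs from 0. It was called for 4 of the 10, where 7.2% of all 26751 genes tested were called lower and 7.52% higher. It was −0.76 ± 0.06 for Klf6 (edgeR adjusted p = 1.26e-05), −0.81 ± 0.11 for Ier2 (0.000406) and −0.55 ± 0.07 for Egr1 (0.000327). These are 3 members that fell in WAT and did not in liver. For Jun, which fell more in liver, it was 0.30 ± 0.08 (adjusted p = 0.0316), and this call was lost in each of the 8 fits that left out 1 library (adjusted p from 0.0678 to 0.107). For Fos it was −0.02 ± 0.07 (adjusted p = 1) and for Atf3 −0.02 ± 0.11 (adjusted p = 1). Nr4a1, at −0.50 ± 0.18 (adjusted p = 0.0943), passed with DESeq2 (−0.49, adjusted p = 0.0429) and without the second WAT fl/fl vehicle library (−0.69).

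The genotype by tissue interaction on vehicle called the same 4 members, where 6.75% of all genes were called lower and 7.44% higher. It shares the fl/fl vehicle libraries of both tissues with the test above. It was −0.75 ± 0.06 for Klf6 (edgeR adjusted p = 1.36e-05), −0.71 ± 0.11 for Ier2 (0.00103), −0.49 ± 0.07 for Egr1 (0.000716) and 0.36 ± 0.08 for Jun (0.0119). The call for Jun was lost when the fit held only the groups compared (0.36, adjusted p = 0.0694). Fos was at −0.04 ± 0.07, and Fosb at 0.35 ± 0.12 (adjusted p = 0.0787), which passed without the second liver fl/fl vehicle library (0.46, adjusted p = 0.0217), with DESeq2 (adjusted p = 0.0222), with library totals (0.50, adjusted p = 0.0228), with the GC and length trend removed (0.53, adjusted p = 0.00463) and with the replicate block (adjusted p = 0.0272). Without that library Atf3 passed too (−0.27, adjusted p = 0.0487, against −0.11 with it), and without the second WAT fl/fl vehicle library Nr4a1 did (−0.64, adjusted p = 0.0361). Removing the trend with GC content and length raised the counts from 4 to 7 members for treatment and from 4 to 8 for genotype. Fos, Junb and Atf3 then passed in both, at −0.41, −0.59 and −0.47 for treatment. Ier2 moved to −1.60 and −1.57 under that setting.

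The other genes of the pathway moved in both directions in WAT. Of 23 further immediate early genes, 5 rose and 8 fell with NOX_6_18 in fl/fl, with a median of 0.02. The shares over all genes were 24.6% and 13.2%, with a median of 0.12, and apply to each list in this comparison. Arc, better known for synaptic plasticity, rose by 1.54 ± 0.08 on the log2 scale (edgeR adjusted p = 2.99e-06), from 13.1 to 38.5 CPM. Btg2, an antiproliferative gene, changed by −0.57 ± 0.05 (adjusted p = 3.61e-05), and Rhob, a small GTPase of endosomes, by −0.54 ± 0.05 (adjusted p = 8.92e-05). Of the 17 regulators that switch these genes on (kinases, SRF and its cofactors, CREB), 5 fell and 0 rose, with a median of −0.24. Elk3, an ETS partner of SRF, changed by −0.62 ± 0.07 (adjusted p = 0.000172) and Mapk3, the kinase ERK1, by −0.45 ± 0.08 (adjusted p = 0.00216).

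Most feedback genes fell in WAT. Of 14, 11 fell and 1 rose with NOX_6_18 in WAT fl/fl, with a median of −0.48. Dusp1, the phosphatase that inactivates MAP kinases, changed by −0.55 ± 0.05 (edgeR adjusted p = 4.24e-05), from 1876 to 1289 CPM, and Zfp36, which destabilises short-lived mRNAs, by −0.50 ± 0.06 (adjusted p = 0.000341), from 2473 to 1771 CPM. Crem, whose ICER forms repress cyclic AMP responses, was the riser, by 1.25 ± 0.11 (adjusted p = 4.59e-05), from 10.6 to 25.3 CPM. Of 12 genes known as AP-1 or EGR targets, 3 rose and 7 fell, with a median of −0.27. The metalloprotease gene Mmp3 changed by −1.87 ± 0.16 (adjusted p = 4.24e-05) and Timp1, a metalloprotease inhibitor, by −1.70 ± 0.13 (adjusted p = 2.65e-05). Of 9 heat shock genes, 5 rose and 0 fell, with a median of 0.38, among them Hspa1b (0.90 ± 0.06, adjusted p = 1.44e-05). For CKO on vehicle in WAT the counts higher and lower were 6 and 6 of the further immediate early genes, 0 and 6 of the regulators, 1 and 10 of the feedback genes, 4 and 6 of the targets, and 5 and 0 of the heat shock genes.

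In liver the pathway lists had few falls. With NOX_6_18 in fl/fl, 5 of 21 measured further immediate early genes rose and 1 fell (median 0.19), 0 of 17 regulators changed (median 0.01), and 2 of 14 feedback genes rose and 0 fell (median 0.12). Over all genes 3.78% rose and 1.74% fell, with a median of 0. Per1, a clock gene that is also induced early, rose by 1.20 ± 0.06 (edgeR adjusted p = 2.54e-05), from 53.3 to 123 CPM. Fosl2, a further FOS-family member, rose by 0.80 ± 0.07 (adjusted p = 0.000482), while Fos itself fell. Klf2, a relative of Klf6, rose by 0.84 ± 0.08 (adjusted p = 0.000509), and Dusp4, a nuclear MAP kinase phosphatase, by 1.06 ± 0.12 (adjusted p = 0.00124). Egr3, a relative of Egr1 and Egr2 that is the 1 gene that fell, was named after its values were seen and changed by −1.60 ± 0.31 (adjusted p = 0.0232). Among AP-1 and EGR targets 4 of 12 rose and 1 fell (median 0.05), and Mmp9, a gelatinase of neutrophils and macrophages, rose by 1.90 ± 0.18 (adjusted p = 0.000573). Of 9 heat shock genes, 5 rose and 2 fell (median 0.60). Hspa1b (−0.87 ± 0.06, adjusted p = 8.57e-05) and Hspa1a (−0.77 ± 0.06, adjusted p = 0.000138) were the pair that fell, the reverse of their direction in WAT. In CKO on vehicle, 6 and 0 of the further immediate early genes, 0 and 0 of the regulators, 3 and 0 of the feedback genes, 4 and 1 of the targets, and 5 and 2 of the heat shock genes were higher and lower.

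**Figure D4:**
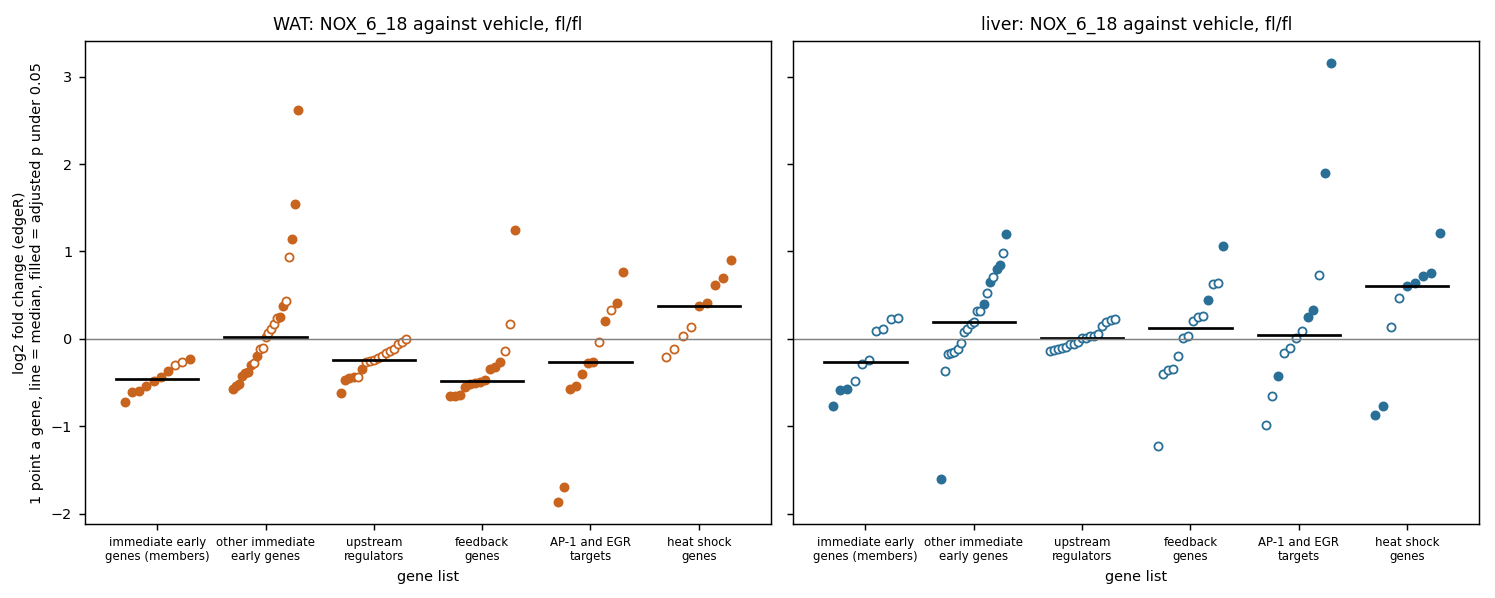
Log2 fold change with NOX_6_18 in fl/fl for the members and the genes of each pathway list, in WAT and in liver; each point is 1 gene, filled where edgeR's adjusted p was under 0.05, and lines are medians. Feedback genes had a median of −0.48 in WAT and 0.12 in liver, beside −0.46 and −0.26 for the members.

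Markers of several cell types moved with the same libraries. In WAT the members summed to 12900 to 13300 CPM in fl/fl vehicle and to 9490 to 9980 CPM in the other 6 libraries. The 10 macrophage markers summed to 7510 to 7830 against 5490 to 5810 CPM, and 8 of the 10 fell with NOX_6_18 in fl/fl while 1 rose. Fibroblast markers summed to 14800 to 15500 against 7900 to 8160 CPM (6 of 7 fell), and endothelial markers to 1420 to 1560 against 1050 to 1140 CPM (5 of 6 fell). Kupffer cell markers summed to 231 to 245 against 167 to 227 CPM (2 of 6 fell), and T and B cell markers to 14.8 to 16.1 against 11.7 to 14.8 CPM (1 of 7 fell). Most of the Kupffer cell sum was Folr2, with means of 149 CPM in fl/fl NOX_6_18 and 167.8 CPM in CKO NOX_6_18. Clec4f was at 0.103 and 0.375 CPM in those groups. The T and B cell ranges touched at 14.8 CPM. Over all genes tested in WAT, 13.2% fell and 24.6% rose with NOX_6_18 in fl/fl. Other lists were lower in fl/fl vehicle. Neutrophil markers summed to 42.9 to 45.9 against 108 to 124 CPM (5 of 7 measured rose), hepatocyte markers to 9.10 to 10.9 against 31.4 to 35.8 CPM (5 of 7 rose), and adipocyte markers to 91.7 to 96.9 against 113 to 119 CPM (4 of 7 rose, 1 fell). Most of the neutrophil sum was Lcn2, with means of 76.9 CPM in fl/fl NOX_6_18 and 76.8 CPM in CKO NOX_6_18. S100a8 was at 1.06 and 1.05 CPM in those groups. Erythroid markers summed to 622 to 707 against 1390 to 1630 CPM (4 of 5 rose), and spermatid markers to 13.1 to 15.7 against 495 to 550 CPM (6 of 6 rose). Only 1 neutrophil marker was at 0 in both fl/fl vehicle libraries of WAT. The part of these shifts in the members' changes was not tested.

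In liver the shifts had another pattern. With NOX_6_18 in fl/fl, 3.78% of all genes tested rose there and 1.74% fell. The members summed to 1100 to 1110 CPM in fl/fl vehicle and to 883 to 960 CPM in the other 6 libraries. Macrophage markers summed to 3720 to 3740 against 4040 to 4140 CPM (2 of 10 rose and 1 fell with NOX_6_18 in fl/fl), and Kupffer cell markers to 1820 to 1870 against 2230 to 2290 CPM (4 of 6 rose). Neutrophil markers summed to 51.1 to 52.8 against 166 to 179 CPM (6 of 8 rose), and T and B cell markers to 54.6 to 57.1 against 24.0 to 29.5 CPM (3 of 7 fell). Erythroid markers summed to 6890 to 7150 against 3650 to 4010 CPM (3 of 5 fell), and adipocyte markers to 99.7 to 101 against 302 to 314 CPM (1 of 5 measured rose). Most of that adipocyte sum was Pck1, with means of 287.3 CPM in fl/fl NOX_6_18 and 281.5 CPM in CKO NOX_6_18. In those groups Lipe was at 23.2 and 20.9 CPM, and Plin1, Cidec and Cfd were between 0.268 and 1.06 CPM. The sum therefore follows mainly Pck1 and does not measure adipocytes. Endothelial markers were at 5140 to 5200 against 5190 to 5400 CPM (1 of 6 fell), fibroblast markers at 381 to 386 against 418 to 453 CPM (1 of 7 rose), and hepatocyte markers at 3770 to 3880 against 4040 to 4130 CPM (3 of 7 rose, 1 fell). Spermatid markers were at 0 in fl/fl vehicle (6 of 6 genes) and at 0.341 to 1.99 CPM in the other 6, and 3 of 7 adipocyte and 1 of 8 neutrophil markers were at 0 in fl/fl vehicle. The part of these shifts in the members' changes was not tested. Macrophage markers were present in both tissues. They stood beside fibroblast markers in WAT, which summed to more than they did, and beside hepatocyte, endothelial and erythroid markers in liver, of which the endothelial and, in fl/fl vehicle, the hepatocyte and erythroid markers summed to more. These sums are in CPM and not per length.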

How the data were processed

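RNA-seq of 16 mouse libraries was analysed, with groups read from the sample titles. For each library the authors deposited a table of raw counts by Ensembl gene. The submitters' processing notes list HISAT, featureCounts 1.5.0, DESeq 1.8.3 and GRCm38 and state no order of use. Annotation release and strand setting: not given in the sources used here. Symbols, positions and exon lengths came from GENCODE M21 (GRCm38), matched by identifier for 55240 genes (99.7%).

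Groups were compared in R 4.3.3 with edgeR 4.0.16 (quasi-likelihood test, TMM factors, filterByExpr, 1 coefficient for each group). P-values were adjusted by Benjamini-Hochberg over all genes fitted (25871 in WAT, 19515 in liver, 26751 over both), and called under 0.05. Each tissue was fitted on its own 8 libraries, and comparisons between tissues used all 16. SE was derived from the log2 fold change and the F statistic. The members and gene lists were chosen with earlier results of these data known. All members were named, with up to 3 called genes of smallest adjusted p from each list and comparison, of which the text prints part. Alternatives included DESeq2 1.42.0 and limma-voom (limma 3.58.1).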

Additional observations from a re-analysis of the deposited data

Results flagged for a closer look

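The results below are differences between groups in the same contrast, each from an interaction term of edgeR's quasi-likelihood test with adjusted p under 0.05, on the log2 scale. In WAT the change with NOX_6_18 differed between CKO and fl/fl for 8 members, by 0.55 for Fos, 0.23 for Fosb, 0.44 for Jun, 0.34 for Junb, 0.39 for Egr1, 0.62 for Ier2, 0.53 for Klf6 and 0.60 for Atf3. In liver the same difference was 0.50 for Fos and 0.82 for Jun. All of these rest on the fl/fl vehicle libraries, since NOX_6_18 called 0 members in CKO in either tissue (edgeR, 0 members with an unadjusted p under 0.05 in WAT and 1 in liver).

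Between tissues, the change with NOX_6_18 in fl/fl (WAT minus liver) differed by 0.30 for Jun, −0.55 for Egr1, −0.81 for Ier2 and −0.76 for Klf6. The change in CKO on vehicle differed by 0.36 for Jun, −0.49 for Egr1, −0.71 for Ier2 and −0.75 for Klf6. No group had the 4 libraries that a check for outlying libraries needs.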

How the results depend on the processing

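Alternatives were relative log expression size factors, library totals as the only scaling, no filter on low counts, at least 50 counts in 2 libraries, DESeq2, a replicate block, limma-voom, a fit of the compared groups alone, and each library left out in turn, where the lone library of a group is assumed to vary like the others. Removing the trend with GC content and length, and leaving out mitochondrially encoded genes, were chosen after seeing the data. Over these settings the members called ran from 7 to 9 for NOX_6_18 in WAT fl/fl, 6 to 9 for CKO in WAT and 6 to 9 for the interaction in WAT. They ran from 2 to 4 in both liver comparisons and from 1 to 3 for the liver interaction, were 10 in each setting for WAT against liver, and were 0 in each setting for the 4 comparisons without fl/fl vehicle libraries.

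For CKO in liver, no fit that left out 1 library kept all 4 calls. Without the first fl/fl vehicle library Fosb was lost (−0.43), and without the second Atf3 was (−0.31). Both were lost without either CKO vehicle library. The liver interaction called 1 member, against 2, with the replicate block and without any 1 of 7 libraries (1 to 2 over the libraries left out). With the GC and length trend removed, the treatment by tissue interaction called 7 members and the genotype by tissue interaction 8, against 4 each. The cause was not tested.

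Signs turned only for estimates that were not called. Egr2 with NOX_6_18 in WAT fl/fl was 0.34 without the second fl/fl vehicle library (−0.75 to 0.34 over the libraries left out). With library totals only, Fos, Junb and Atf3 were 0.14, 0.04 and 0.15 in the treatment by tissue interaction and 0.11, 0.02 and 0.05 in the genotype by tissue interaction. In the treatment by tissue interaction, leaving out the first WAT fl/fl vehicle library gave Fos 0.01, Egr2 −0.28 and Atf3 0.01, and leaving out the second WAT fl/fl NOX_6_18 library gave Egr2 −0.02. Leaving out the first liver fl/fl vehicle library gave Fosb −0.07 and Atf3 0.13, the second gave Fos 0.05, the first liver fl/fl NOX_6_18 library gave Fos 0.01, and the second gave Fosb −0.03. Over the libraries left out, Fos ran from −0.10 to 0.05 there, Fosb from −0.07 to 0.17, Egr2 from −0.28 to 0.81 and Atf3 from −0.17 to 0.13. In the genotype by tissue interaction, Egr2 was 0.20 without the second WAT fl/fl vehicle library, Atf3 0.04 without the first liver fl/fl vehicle library, and Fos 0.03 without the second. Over the libraries left out, Fos ran from −0.12 to 0.03 there, Egr2 from −0.89 to 0.20 and Atf3 from −0.27 to 0.04. The cause was not tested.

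The share of all genes called ran from 23.7% to 44.0% for NOX_6_18 in WAT fl/fl, from 2.93% to 7.92% for NOX_6_18 in liver fl/fl, from 1.36% to 4.25% for the liver interaction, and from 8.99% to 24.4% for the treatment by tissue interaction. Across genes, the correlation of replicate differences between groups ran from −0.0314 to 0.159 in WAT and from −0.0339 to 0.0116 in liver. These low values do not settle whether replicate numbers pair the libraries. The replicate block ended the calls for the Fos interaction in liver (adjusted p = 0.051) and for Atf3 in liver CKO (adjusted p = 0.0569), passed Fosb in the genotype by tissue interaction (adjusted p = 0.0272), and changed no other member's call. Egr2 in liver had as few as 69 counts in a library; its SE between 2 groups was 0.31 there, against 0.34 to 0.35 in WAT at 1817 counts or more.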

Other observations

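Genes whose log2 CPM followed that of Fos most closely over the 8 WAT libraries were Lgmn, a lysosomal protease (Pearson r = 0.9993), Plau, the urokinase gene (0.999), Plin2, a lipid droplet coat gene (0.9989), Elk3 (0.9987) and Cd68, a macrophage lysosomal marker (0.9986). These are descriptions over 9919 genes that are no members, and 1100 of them had r above 0.95. For Fos the fl/fl vehicle libraries lie apart from the other 6, so the points form separate clusters. In liver the closest were Tmsb10 (0.9903), Cirbp (0.9898), Ccnd1 (0.9868), Lyz2 (0.9842), the gene that drives the Cre, and Pik3ap1 (0.9825), with 80 of 9257 genes above 0.95.

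Within groups, of the 8 pairs of libraries, the one with more Fos had more Junb and more Atf3 in 6, more Egr1, Ier2 and Nr4a1 in 5, more Fosb and Egr2 in 4, and more Jun and Klf6 in 3.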
